A study of Mus musculus with 8 samples.

Results

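*Snx10*, *Tmem176a* and *Tmem176b* are 3 of the 18833 genes in a single-cell RNA sequencing (scRNA-seq) matrix of mouse oligodendrocytes, the cells that make myelin. They were chosen by measured values of these same cells: the *Fire*Δ/Δ minus *Fire*+/+ difference, the difference between the oligodendrocyte cluster Oligo1 and the other *Fire*Δ/Δ oligodendrocytes, and detection together with *C4b*. Those 3 comparisons are therefore given as descriptions with no test. All 3 genes passed the low-value filter (a unique molecular identifier, UMI, in at least 1.0% of cells), and they were detected in 1347, 714 and 1220 of 12581 cells, respectively.

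*Snx10* encodes a small sorting nexin, a protein of the endosome membrane that takes part in endosomal traffic and in placing the proton pump V-ATPase, and loss of it causes osteopetrosis through osteoclasts. *Tmem176a* and *Tmem176b* are neighbouring genes for 4-pass membrane proteins related to the MS4A family, best known from dendritic cells, where they act in intracellular vesicles, in cation transport and in antigen presentation. *C4b* encodes complement component C4 and *Serpina3n* a secreted serine protease inhibitor, and both are known markers of reactive oligodendrocytes.

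The study asked what happens to oligodendrocytes when microglia are missing. *Fire*Δ/Δ mice (labelled FIREdelta/delta KO, and KO in the plots) lack the FIRE enhancer of *Csf1r* in every cell, which removes microglia, and *Fire*+/+ mice (labelled WT) keep it. Hippocampus and cortex (the rest of the left hemisphere) were each sequenced as a library from 2 female *Fire*+/+ mice (1 and 4) and 2 female *Fire*Δ/Δ mice (3 and 6), with no treatment in either group. Mice 1 and 3 were aged 1 month 18 days and mice 4 and 6 1 month 16 days. Each chip (3 and 5 for hippocampus, 4 and 6 for cortex) held a *Fire*+/+ and a *Fire*Δ/Δ library, so that genotypes can be compared within a chip, whereas tissue and chip cannot be told apart. The replicate is the mouse, so n = 2 per genotype in every comparison. The labels name these 4 mice, and the study's own description gives more mice per group, so that the n and SD here rest on the labels.

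The libraries held 904 to 2784 cells, 12015360 to 27847948 UMIs in all and 9377 to 13726 median UMIs per cell, and 21 cell barcodes occurred in more than 1 library. The authors' clusters hold 1558 (Oligo1), 2382 (Oligo2), 7579 (Oligo3) and 1062 (Oligo4) cells, and 1552 of the Oligo1 cells came from *Fire*Δ/Δ mice. The oligodendrocyte markers *Mog*, *Mag* and *Mbp* summed to 93.2 to 109 UMIs per 10000 in the libraries. *Csf1r*, the gene whose intron held the deleted enhancer, had a UMI in 5.31 to 10.2% of *Fire*+/+ and 0 to 0.155% of *Fire*Δ/Δ oligodendrocytes (the 0 is of 904 cells, which allows a share of up to 0.332%). The hippocampus library of *Fire*+/+ mouse 4 stood apart from the other *Fire*+/+ libraries, with *C4b* in 11.8% of cells against 4.34 to 6.14% and *Serpina3n* in 6.69% against 1.43 to 1.51%. It held the 6 *Fire*+/+ cells of Oligo1, of which 1 had a UMI of *Snx10*, 0 of *Tmem176a* and 2 of *Tmem176b*.

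All 3 genes lie on chromosome 6 of GRCm38. *Snx10* (ENSMUSG00000038301.15) spans chr6:51523901-51590679 on the plus strand. *Tmem176a* (ENSMUSG00000023367.14, chr6:48840919-48847071, plus strand) and *Tmem176b* (ENSMUSG00000029810.15, chr6:48833818-48841496, minus strand) run in opposite directions and share 578 bases, 2.68 Mb from *Snx10*. The shared stretch lies at the start of both genes, and the study made its libraries with a 3′ kit. Whether reads of that stretch were assigned by strand is not given in the sources used here. Whether part of either gene's UMIs belongs to its partner was not tested. The windows from 250 bases before to 50 bases after the first RefSeq start site of each gene (GRCm38.p6) are shown because the pair is detected together below. In the *Tmem176* windows, capitals mark the 155 bases that both hold, on opposite strands, and the listed start sites are 346 bases apart. From these RefSeq sites the 2 genes run away from each other, so the 578 shared bases are those of the GENCODE spans above.

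*Tmem176a*, chr6:48841233-48841532, plus strand: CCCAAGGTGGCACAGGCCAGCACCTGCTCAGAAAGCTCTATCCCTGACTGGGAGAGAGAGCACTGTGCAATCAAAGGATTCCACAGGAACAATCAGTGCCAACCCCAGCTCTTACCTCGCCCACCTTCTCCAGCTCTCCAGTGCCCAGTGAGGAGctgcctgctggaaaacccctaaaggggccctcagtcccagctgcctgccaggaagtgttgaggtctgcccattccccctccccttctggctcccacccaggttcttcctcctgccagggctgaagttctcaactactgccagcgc

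*Tmem176b*, chr6:48841088-48841387, minus strand: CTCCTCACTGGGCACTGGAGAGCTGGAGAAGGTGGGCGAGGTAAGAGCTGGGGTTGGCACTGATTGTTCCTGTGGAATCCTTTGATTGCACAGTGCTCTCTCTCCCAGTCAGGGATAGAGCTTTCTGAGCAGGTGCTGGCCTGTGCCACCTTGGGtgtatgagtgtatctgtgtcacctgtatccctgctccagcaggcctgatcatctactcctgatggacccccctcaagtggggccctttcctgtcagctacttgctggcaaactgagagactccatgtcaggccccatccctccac

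The *Snx10* window does not overlap them and is shown for contrast, with matches to GGGCGG (the GC box) and CCAAT on either strand in capitals.

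*Snx10*, chr6:51523653-51523952, plus strand: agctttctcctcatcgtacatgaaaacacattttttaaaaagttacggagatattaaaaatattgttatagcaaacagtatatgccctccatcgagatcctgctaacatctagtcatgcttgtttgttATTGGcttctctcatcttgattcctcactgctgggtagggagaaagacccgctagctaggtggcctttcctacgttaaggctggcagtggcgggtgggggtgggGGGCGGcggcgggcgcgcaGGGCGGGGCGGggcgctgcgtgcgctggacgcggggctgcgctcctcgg

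The GC box matched 3 times in the *Snx10* window, at -18, 2 and 7 from the start site, the last of them overlapping its neighbour by a base, and the CCAAT box matched once, at -122. Of the 32851 RefSeq promoter windows of this length, 35.7% held the first and 37.4% the second. Neither occurred in the 5 windows of *Tmem176a* and *Tmem176b*. No match was found there on either strand to the E-box CACGTG (in 7.15% of all windows), the STAT motif TTCNNNGAA (8.30%), the AP-1 motif TGANTCA (7.81%) or the TATA box TATAAA (13.6%). The AP-1 motif matched once in the second of the 3 *Snx10* windows, at -98.

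*Snx10* was detected in a larger share of oligodendrocytes in every *Fire*Δ/Δ library than in any *Fire*+/+ library. In the *Fire*+/+ hippocampus, 4.97% of cells of both mouse 1 and mouse 4 had a *Snx10* UMI, and in the cortex 4.32% and 4.99%. In the *Fire*Δ/Δ hippocampus the share was 18.3% in mouse 3 and 18.2% in mouse 6, and in the cortex 8.47% and 12.4%. The *Fire*+/+ libraries were almost level, and in *Fire*Δ/Δ both hippocampus libraries were above both cortex libraries. The *Fire*Δ/Δ hippocampus libraries also held more Oligo1 cells, 859 of 2784 and 448 of 1934, against 147 of 1074 and 98 of 904 in the cortex. Outside Oligo1 this order did not hold, with 9.55% in the cortex of mouse 6 and 7.74% in the hippocampus of mouse 3. Mean log2 normalised expression (the deposited log2 of the size-factor-normalised UMI count plus 1, averaged over cells, then over the 2 tissues of a mouse) reached 0.14 ± 0.0017 (mean ± SD of 2 mice) in *Fire*Δ/Δ and 0.038 ± 0.0004 in *Fire*+/+, a difference of 0.099 with a limma standard error of 0.0082.

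*Tmem176a* was the least detected of the 3 genes. It had a UMI in 2.11% and 3.15% of *Fire*+/+ hippocampus cells (mice 1 and 4) and in 2.61% and 4.01% of *Fire*+/+ cortex cells. The *Fire*Δ/Δ shares were 9.66% and 8.89% in the hippocampus (mice 3 and 6) and 4.66% and 6.64% in the cortex. The genotypes did not overlap, and the closest libraries were the *Fire*Δ/Δ cortex of mouse 3 and the *Fire*+/+ cortex of mouse 4. Mean log2 expression was 0.066 ± 0.0016 (SD, n = 2) in *Fire*Δ/Δ and 0.022 ± 0.0052 in *Fire*+/+.

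*Tmem176b* lay above *Tmem176a* in every library. It was detected in 4.89% and 6.40% of *Fire*+/+ hippocampus cells and in 4.32% and 5.34% of *Fire*+/+ cortex cells (mice 1 and 4). In *Fire*Δ/Δ the shares were 16.4% and 14.1% in the hippocampus and 8.47% and 10.8% in the cortex (mice 3 and 6). Mean log2 expression was 0.12 ± 0.0063 (SD, n = 2) in *Fire*Δ/Δ and 0.042 ± 0.0046 in *Fire*+/+, again with no overlap between libraries. Comparing libraries of 1 chip, *Fire*Δ/Δ exceeded *Fire*+/+ in all 4 chips for each gene, by 4.15 to 13.3 percentage points for *Snx10*, 2.05 to 7.56 for *Tmem176a* and 4.15 to 11.5 for *Tmem176b*. The share of all genes that were higher in all 4 chips was not computed.

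The 3 genes share this pattern with 2.95% of the 11672 genes tested, for which all 4 *Fire*Δ/Δ libraries lay above all 4 *Fire*+/+ libraries. Since the members were picked for this difference, nothing about them is read from that share. Across all genes the median difference was 0.00092, and limma called 6 genes at an adjusted p below 0.05, which is 0.0514% of those tested. *C4b* and *Serpina3n* differed by 1.22 and 0.54 on the same log2 scale, so the differences of *Snx10* (0.099), *Tmem176b* (0.077) and *Tmem176a* (0.043) were small on that scale. It averages over many cells without a UMI and does not give a fold change. By edgeR on recovered counts, the log2 fold changes were 2.18 for *Snx10*, 1.85 for *Tmem176b* and 1.95 for *Tmem176a*.

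**Figure D1:**
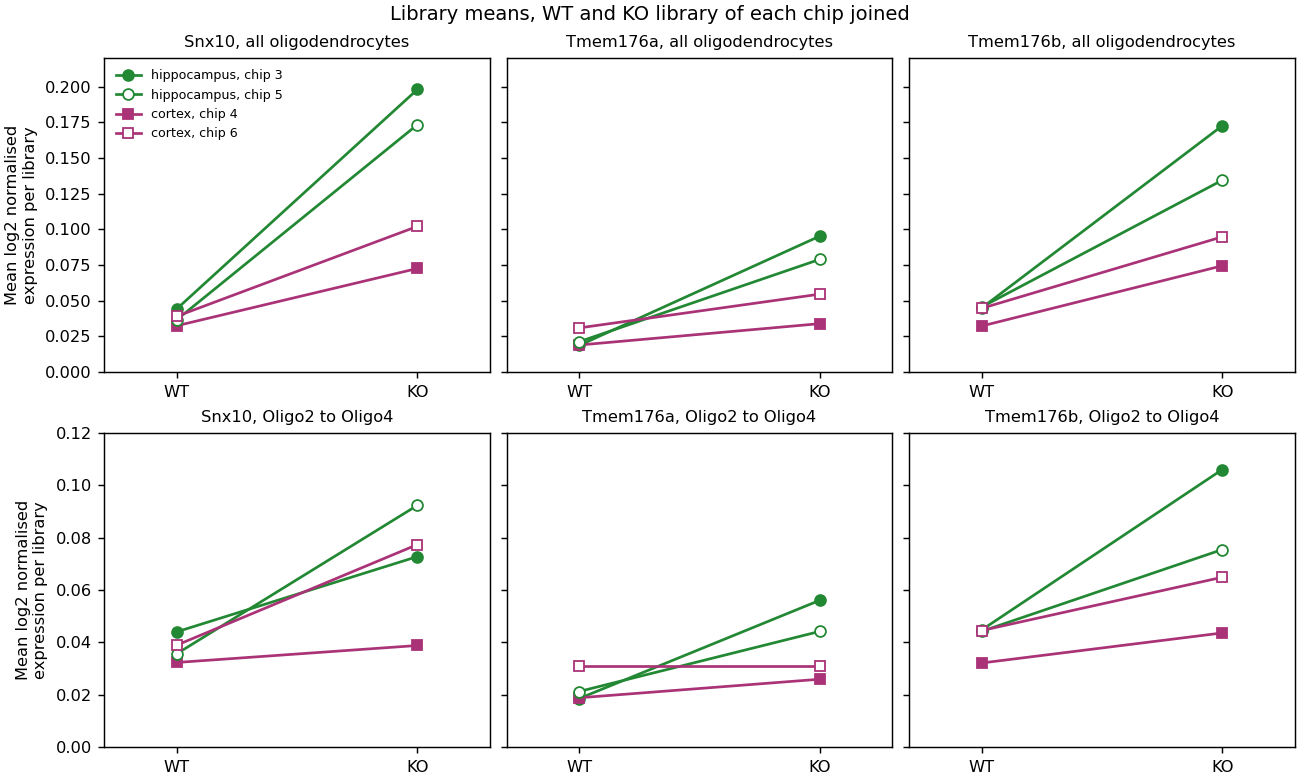
Mean log2 normalised expression per library of *Snx10*, *Tmem176a* and *Tmem176b* in *Fire*+/+ (WT) and *Fire*Δ/Δ (KO) mice, with the 2 libraries of a chip joined by a line (green circles, hippocampus; purple squares, cortex). In all oligodendrocytes (upper row) every line rises, whereas without Oligo1 (lower row, on its own axis) the lines are flatter and the line of *Tmem176a* in chip 6 is level.

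Much of the difference went with Oligo1. Among the cells of Oligo2 to Oligo4, the mean log2 difference between genotypes fell to 0.033 for *Snx10*, 0.017 for *Tmem176a* and 0.031 for *Tmem176b*, each on the same scale as above. Without *Fire*Δ/Δ mouse 6 the difference of *Snx10* was 0.018, and in the cortex libraries alone that of *Tmem176a* was 0.0036 and that of *Tmem176b* 0.016. Mean expression of *Snx10* was 0.073 and 0.092 in the *Fire*Δ/Δ hippocampus (mice 3 and 6) and 0.039 and 0.077 in the *Fire*Δ/Δ cortex, against 0.044 and 0.036 in the *Fire*+/+ hippocampus (mice 1 and 4) and 0.032 and 0.039 in the *Fire*+/+ cortex. The *Fire*Δ/Δ cortex library of mouse 3 lay within the *Fire*+/+ range. *Tmem176b* stood at 0.11 and 0.076 in the *Fire*Δ/Δ hippocampus and 0.044 and 0.065 in the *Fire*Δ/Δ cortex, against 0.032 to 0.045 in *Fire*+/+ libraries, and *Tmem176a* at 0.056, 0.044, 0.026 and 0.031, against 0.019 to 0.031.

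On this mean log2 scale none of the 3 genes separated the genotypes in every library once Oligo1 was set aside, whereas *C4b* and *Serpina3n* still did. By share of cells *Snx10* still did with all UMIs, but narrowly, at 5.07 to 10.8% in *Fire*Δ/Δ and 4.32 to 4.99% in *Fire*+/+ libraries. At 5000 UMIs per cell its shares overlapped, at 2.13 to 5.4% and 1.83 to 2.59%. With all UMIs, the 95% Clopper-Pearson intervals of the nearest libraries also overlapped. They were 3.749 to 6.685% (*Fire*Δ/Δ cortex of mouse 3) and 3.789 to 6.427% (*Fire*+/+ cortex of mouse 4). *Tmem176a* (3.78 to 5.82% and 2.11 to 4.01%) and *Tmem176b* (5.61 to 10.6% and 4.32 to 6.24%) overlapped with all UMIs. For this measure the share of all genes was not computed. Of all 11648 genes tested in Oligo2 to Oligo4, 1.67% had all *Fire*Δ/Δ libraries above all *Fire*+/+ libraries on the mean log2 scale. On that scale limma called 3 genes, or 0.0258%. Within chips, *Snx10* was still detected in more *Fire*Δ/Δ than *Fire*+/+ cells of Oligo2 to Oligo4 in all 4 chips, by 0.748 to 5.93 percentage points, and *Tmem176b* by 1.29 to 5.71 points. *Tmem176a* exceeded by 1.17 to 3.71 points in chips 3, 4 and 5 and by 0.211 points in chip 6, where it was lower by 0.08 points (-0.08) at 5000 UMIs per cell. By cluster, its *Fire*Δ/Δ libraries exceeded in all 4 chips in Oligo4, by 8.26 to 13.6 points, whereas in Oligo2 the differences ran from -3.38 to 2.68 points and in Oligo3 from -0.359 to 1.80 points. For these chip counts too, the share of all genes was not computed.

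*Snx10* and the *Tmem176* pair differed in which clusters held them. *Snx10* had its highest level in Oligo1: in the *Fire*Δ/Δ hippocampus 41.9% (mouse 3, 360 of 859 cells) and 42.4% (mouse 6, 190 of 448 cells) of Oligo1 cells had a UMI, and in the cortex 29.9% (44 of 147) and 35.7% (35 of 98). Of the other *Fire*Δ/Δ cells of the same libraries, 7.74%, 10.8%, 5.07% and 9.55% had one. Every Oligo1 value was at least 3-fold above its own library's other cells.

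*Tmem176a* was detected in 18.3% and 21.2% of Oligo1 cells of the *Fire*Δ/Δ hippocampus (mice 3 and 6) and in 10.2% and 26.5% of those of the cortex. In the other cells of these libraries the shares were 5.82%, 5.18%, 3.78% and 4.22%. The cortex libraries held the lowest and the highest Oligo1 share, from 147 and 98 cells. *Tmem176b* was more even, at 29.5%, 31.7%, 26.5% and 33.7% of Oligo1 cells in the same order, against 10.6%, 8.82%, 5.61% and 8.07% of the other cells.

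On the scale of mean normalised counts, Oligo1 exceeded the other *Fire*Δ/Δ cells by 3.99- to 8.18-fold for *Snx10*, 3.38- to 9.20-fold for *Tmem176a* and 3.21- to 6.85-fold for *Tmem176b* across the 4 libraries. A difference of at least 2-fold in all 4 libraries was met by 1.00% of 11669 genes. It helped to choose the members and is no separate result about them. On the mean log2 scale the differences per mouse (3 and 6) were 0.39 and 0.33 for *Snx10*, 0.12 and 0.16 for *Tmem176a* and 0.23 and 0.26 for *Tmem176b*.

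Outside Oligo1, *Snx10* and the pair parted. In *Fire*Δ/Δ Oligo4, *Tmem176b* was detected in 29.3% and 20.1% of hippocampus cells (mice 3 and 6) and 25.5% and 27.8% of cortex cells, which overlapped with Oligo1. *Tmem176a* was detected there in 16.9%, 13.1%, 10.6% and 15.3% of cells in the same order, also overlapping with Oligo1. *Snx10* was detected in 9.77%, 14.9%, 2.13% (1 of 47) and 5.56% (4 of 72) of Oligo4 cells, without overlap with its Oligo1 shares. Within each library *Tmem176b* too was lower in Oligo4 than in Oligo1. *Tmem176a* was lower in Oligo4 in all but the cortex of mouse 3, where 10.6% stood against 10.2%.

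The *Fire*+/+ cells of Oligo4 did not share the level of the pair. *Tmem176b* had a UMI in 6.04% and 8.80% of *Fire*+/+ hippocampus cells of Oligo4 (mice 1 and 4) and 7.90% and 6.19% of cortex cells, and *Tmem176a* in 3.36%, 4.80%, 0% (0 of 38 cells, which allows a share of up to 7.90%) and 3.09%. All of these lay below every *Fire*Δ/Δ Oligo4 library, but the share of all genes with such a gap in Oligo4 was not computed. The genotypes were not tested against each other here, since the members were picked for a genotype difference.

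Ordered by mean share over mice, *Snx10* stood at 37.5% ± 2.22 (SD, n = 2 mice) in *Fire*Δ/Δ Oligo1, 11.8% ± 3.54 in *Fire*Δ/Δ Oligo2, 8.10% ± 3.04 in *Fire*Δ/Δ Oligo4 and 6.65% ± 2.13 in *Fire*Δ/Δ Oligo3, and then at 6.22% ± 0.776, 5.21% ± 0.801 and 4.34% ± 0.0293 in Oligo2, Oligo4 and Oligo3 of *Fire*+/+. Only the step from Oligo1 to *Fire*Δ/Δ Oligo2 had no overlap between libraries. *Tmem176b* stood at 30.3% ± 3.32 in *Fire*Δ/Δ Oligo1 and 25.7% ± 2.45 in *Fire*Δ/Δ Oligo4, with overlap, then at 7.23% ± 0.372 in *Fire*+/+ Oligo4 with no overlap, and at 4.78 to 6.31% in the other 4 groups. *Tmem176a* stood at 19.1% ± 6.81 in *Fire*Δ/Δ Oligo1 and 14.0% ± 0.276 in *Fire*Δ/Δ Oligo4, with overlap, and at 2.67 to 3.93% in the other 5 groups, below a gap between libraries. With each cell thinned to 5000 UMIs, the means in *Fire*Δ/Δ Oligo1 were 20.9% for *Snx10*, 10.0% for *Tmem176a* and 17.3% for *Tmem176b*. In *Fire*Δ/Δ Oligo4 they were 4.07%, 6.46% and 12.3%.

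**Figure D2:**
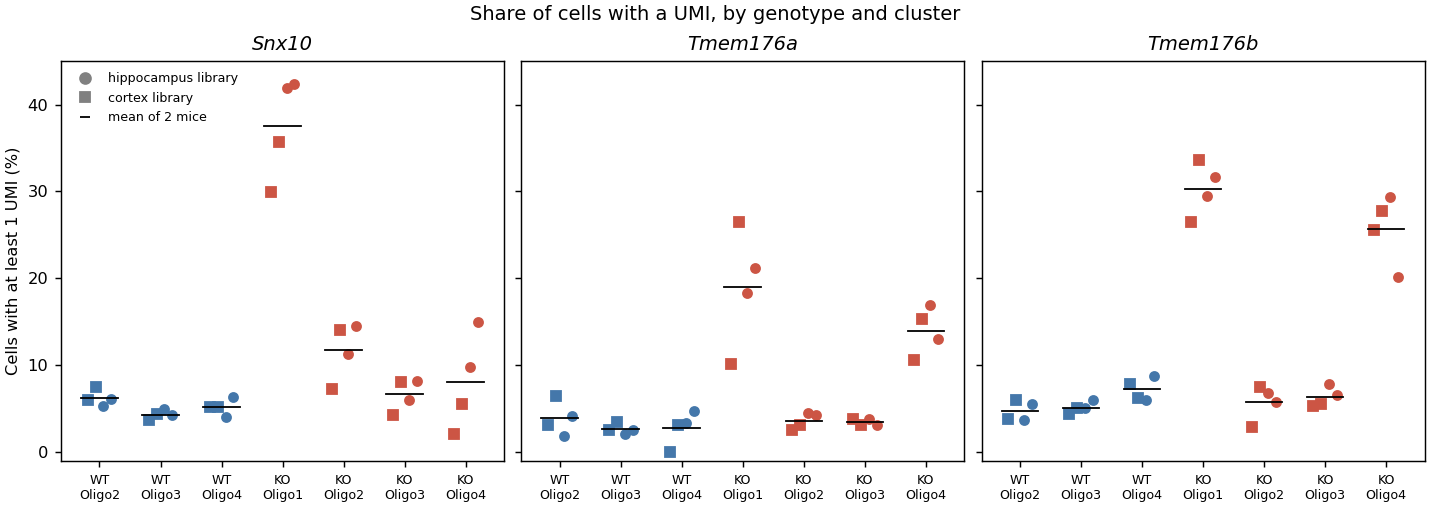
Percentage of cells with at least 1 UMI of each gene, by genotype and cluster (circles, hippocampus libraries; squares, cortex libraries; black line, mean of the 2 mice). *Snx10* is high in *Fire*Δ/Δ (KO) Oligo1 alone, at 29.9 to 42.4%, whereas *Tmem176a* and *Tmem176b* are high in both Oligo1 and Oligo4 of *Fire*Δ/Δ mice, and Oligo1 of *Fire*+/+ (WT) mice, with 6 cells, is not drawn.

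Cells of Oligo1 also carried more UMIs of each gene. The 629 *Snx10*-positive *Fire*Δ/Δ Oligo1 cells had 1.82 UMIs on average, up to 9, and 21.6% of them had 3 or more, whereas the 284 positive *Fire*+/+ cells had 1.15 on average and 0.704% had 3 or more. *Tmem176b* showed 1.77 UMIs per positive Oligo1 cell (467 cells, 16.1% with 3 or more) and 1.14 per positive *Fire*+/+ cell (301 cells, 2.99%). *Tmem176a* showed 1.495 (293 cells, 12.6%) and 1.02 (163 cells, 0 with 3 or more). At this depth, a cell without a UMI cannot be read as a cell that does not express the gene. Shares near the *Fire*+/+ level also cannot be told apart from free RNA, since all deposited cells are oligodendrocytes and no cell type known to lack these genes was at hand.

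Markers of other cell types were looked at beside these levels. Microglial markers summed to 0.669 to 1.60 UMIs per 10000 in *Fire*+/+ libraries and 0.165 to 0.219 in *Fire*Δ/Δ libraries, where the members were higher. In *Fire*Δ/Δ Oligo1, dendritic cell markers summed to at most 0.00993 UMIs per 10000 (3 of 5 genes in the matrix, with *Xcr1* and *Itgax* at 0) and markers of border macrophages to at most 0.0202. Choroid plexus markers in Oligo1 ranged from 0.0238 to 2.10 per 10000, the highest in the hippocampus of mouse 3, where 1 cell carried up to 1728 UMIs of a marker. In the 1397 Oligo1 cells without a choroid plexus UMI, *Snx10*, *Tmem176a* and *Tmem176b* were detected in 39.7%, 19.2% and 30.4% of cells. In the 155 with one the shares were 48.4%, 16.1% and 27.7%. In the 1281 without a microglial UMI they were 39.7%, 18.4% and 30.2%, and in the 271 with one 44.7%, 21.0% and 29.5%. In the 1542 without a dendritic cell UMI they were 40.7%, 18.9% and 30.1%, and in the 10 with one 20%, 10% and 30%. By endothelial UMI the *Snx10* share in Oligo1 was 39.6% without and 50.4% with one. Of these lists of other cell types, only that of dendritic cells had a lower *Snx10* share in Oligo1 cells with a UMI. Depth was not matched in these splits. Ependymal markers were found in many cells at low counts (at most 5 UMIs in a cell of *Fire*Δ/Δ Oligo1 or Oligo4), and *Tmem176b* was detected in 20.1% of the 394 *Fire*Δ/Δ Oligo4 cells without and 32.8% of the 259 with an ependymal UMI, and in 7.20% and 15.04% of such cells of Oligo2 to Oligo4. Their part in the level of *Tmem176b* was not tested. In *Fire*Δ/Δ Oligo1 the shares of *Tmem176b* were 29.6% without and 30.9% with an ependymal UMI. Its share differed by other lists too, in either direction. In *Fire*Δ/Δ Oligo4 it was 35.2% without and 21.4% with an astrocyte UMI. By oligodendrocyte progenitor UMI it was 8.15% and 12.7% in *Fire*Δ/Δ Oligo2 to Oligo4, and by neuron UMI 29.2% and 39.0% in *Fire*Δ/Δ Oligo1. Astrocyte markers summed to 1.22 to 2.05 UMIs per 10000 in *Fire*Δ/Δ Oligo1. Erythrocyte markers reached 22.5 and 8.96 UMIs per 10000 in Oligo4 of the *Fire*Δ/Δ hippocampus (mice 3 and 6). In the 364 *Fire*Δ/Δ Oligo4 cells without an erythrocyte UMI the shares of *Snx10*, *Tmem176a* and *Tmem176b* were 12.6%, 15.1% and 27.2%. In the 289 with one they were 8.65%, 14.2% and 22.5%. Endothelial markers reached 1.57 per 10000 in Oligo4 of the *Fire*Δ/Δ cortex of mouse 3. In the 607 *Fire*Δ/Δ Oligo4 cells without an endothelial UMI the shares of the 3 genes were 10.2%, 14.0% and 24.9%. In the 46 with one they were 19.6%, 23.9% and 28.3%.

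Cells of Oligo1 were counted by which of the 3 genes they had a UMI of, with the same limit on cells without one. Of the 1552 *Fire*Δ/Δ Oligo1 cells, 944 (60.8%) had a UMI of at least 1 of the 3 genes. *Snx10* without either *Tmem176* gene was found in 365 cells (23.5%), a *Tmem176* gene without *Snx10* in 315 (20.3%), and *Snx10* with a *Tmem176* gene in 264 (17.0%). All 3 genes were found in 91 cells (5.86%). In *Fire*Δ/Δ Oligo4 the balance was different: of 653 cells, 176 (27.0%) had a *Tmem176* gene without *Snx10* and 43 (6.59%) *Snx10* without a *Tmem176* gene. In *Fire*+/+ cells, 11.9% had any of the 3 and 4 of 5885 had all of them.

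The *Tmem176* genes were found together in the same cells of Oligo1 more often than either was with *Snx10*, by the odds ratios of all 4 libraries. In the *Fire*Δ/Δ hippocampus, *Tmem176b* was detected in 57.3% of *Tmem176a*-positive Oligo1 cells of mouse 3 (90 of 157) and 65.3% of mouse 6 (62 of 95), against 23.2% and 22.7% of *Tmem176a*-negative Oligo1 cells. In the cortex it was detected in 80.0% (12 of 15) and 65.4% (17 of 26) of positive cells, against 20.5% and 22.2% of negative cells. All 4 libraries showed the same direction, with odds ratios from 4.44 to 15.6. At 5000 UMIs per cell the shares were 38.9 to 47.8% of positive and 12.4 to 15.7% of negative cells.

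In *Fire*Δ/Δ Oligo4, *Tmem176b* was detected in 56 of 96 *Tmem176a*-positive cells and 108 of 557 negative cells, with 55.6 to 63.6% and 14.2 to 24.0% per library. In *Fire*+/+ cells of Oligo2 to Oligo4 the shares were 10.0 to 21.2% and 4.13 to 5.75% (23 of 163 and 276 of 5716 cells). The GENCODE spans of the genes overlap by 578 bases at their starts, whereas from the RefSeq start sites shown above the genes run apart. The part of this joint detection that comes from reads of the shared stretch was not tested.

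*Snx10* and *Tmem176a* were detected together in Oligo1 with odds ratios from 1.47 to 3.05, higher in 4 of 4 libraries. *Tmem176a* was found in 18.2 to 31.4% of *Snx10*-positive and 6.80 to 23.8% of *Snx10*-negative cells. *Snx10* and *Tmem176b* had odds ratios from 0.991 to 1.70. *Tmem176b* was found in 31.6 to 37.1% of *Snx10*-positive and 23.3 to 31.8% of *Snx10*-negative cells, and in the hippocampus of mouse 6 the positive cells were lower by 0.204 percentage points (-0.204). At 5000 UMIs per cell the positive cells were higher in all 4 libraries, by 2.40 to 4.30 points. No p-value is given for these, since cells of 1 library are not replicates.

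**Figure D3:**
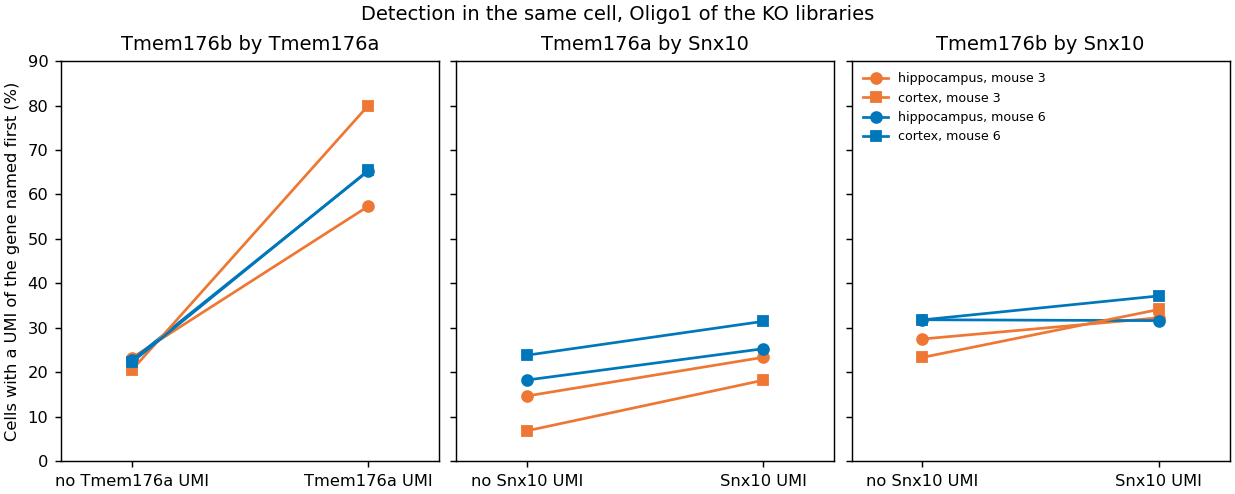
Percentage of *Fire*Δ/Δ Oligo1 cells with a UMI of the gene named first, in cells without and with a UMI of the gene named second, with 1 line per library (circles, hippocampus; squares, cortex; orange, mouse 3; blue, mouse 6). *Tmem176b* rises from 20.5 to 23.2% to 57.3 to 80.0% with *Tmem176a*, whereas the lines with *Snx10* are shallow and 1 of those for *Tmem176b* is level.

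Detection with *C4b* was compared outside Oligo1, because 19 of the 1552 *Fire*Δ/Δ Oligo1 cells lacked a *C4b* UMI. Among 5144 *Fire*Δ/Δ cells of Oligo2 to Oligo4, 2107 had a *C4b* UMI and 3037 did not. *Snx10* was detected in 12.2% and 15.8% of *C4b*-positive hippocampus cells (mice 3 and 6) and in 9.81% and 12.03% of those of the cortex. In *C4b*-negative cells of these libraries it was detected in 4.02%, 7.57%, 3.17% and 7.41%. The positive cells were higher in 4 of 4 libraries, by 6.91 ± 0.675 percentage points (SD, n = 2 mice).

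*Tmem176a* was detected in 8.18%, 8.16%, 6.04% and 6.68% of *C4b*-positive cells in the same order of libraries, and in 3.83%, 3.23%, 2.87% and 2.08% of negative cells, a difference of 4.26 ± 0.712 points. *Tmem176b* was detected in 15%, 13.6%, 6.79% and 10.96% of positive and 6.89%, 5.68%, 5.14% and 5.56% of negative cells, a difference of 5.78 ± 1.26 points. Its gap was narrowest in the cortex of mouse 3. In *Fire*+/+ cells of Oligo2 to Oligo4, with 363 *C4b*-positive cells, the differences were 1.08 points for *Snx10*, 1.10 for *Tmem176a* (positive in 3 of 4 libraries) and 2.54 for *Tmem176b*.

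A higher share in *C4b*-positive cells in all 4 *Fire*Δ/Δ libraries was common: 18.5% of 11661 genes had it, and 16.6% with cells thinned to 5000 UMIs. The median gene differed by 0.479 points, and by 0.125 points at 5000 UMIs, where *Snx10*, *Tmem176a* and *Tmem176b* differed by 3.70, 2.20 and 3.46 points. By size of the difference with all UMIs the 3 genes ranked 97, 468 and 168 among the genes compared, where *Serpina3n* ranked 1, with 28.0 points. At 5000 UMIs they ranked 204, 607 and 230, and *Serpina3n* ranked 1, with 21.7 points. These ranks rest on a measure that the members were picked for.

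The shares went up with the number of *C4b* UMIs in the cell. *Snx10* was detected in 5.37% (95% Clopper-Pearson interval 4.59 to 6.23) of cells with 0 *C4b* UMIs, in 8.05% with 1, in 10.0% with 2 to 4, in 15.1% with 5 to 9 and in 20.8% (17.1 to 24.9) with 10 or more. *Tmem176b* was detected in 5.96%, 6.44%, 12.2%, 16.6% and 18.0% of the same cells. *Tmem176a* reached its level by 5 to 9 *C4b* UMIs, with 3.19%, 4.11%, 6.90%, 10.5% and 10.2%. These intervals cover counting error only, and cells of the 4 libraries were pooled. By cluster, *Tmem176b* in *Fire*Δ/Δ Oligo4 was found in 25.6 to 35.6% of *C4b*-positive and 14.5 to 18.0% of *C4b*-negative cells, a difference of 16.6 ± 0.933 points. In Oligo3, the largest cluster, the difference of *Tmem176b* was 2.94 ± 1.97 points and ran from -1.10 in the cortex of mouse 3 to 6.67 in the hippocampus of mouse 6, with 3 of 4 libraries higher. In Oligo2 it was 3.32 ± 1.70 points, higher in 4 of 4 libraries. *Snx10* was higher in *C4b*-positive cells in 4 of 4 libraries in Oligo2 and Oligo3 and in 3 of 4 in Oligo4, and *Tmem176a* in 4 of 4 in Oligo3 and Oligo4 and in 3 of 4 in Oligo2. The share of all genes with such counts was not computed by cluster.

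**Figure D4:**
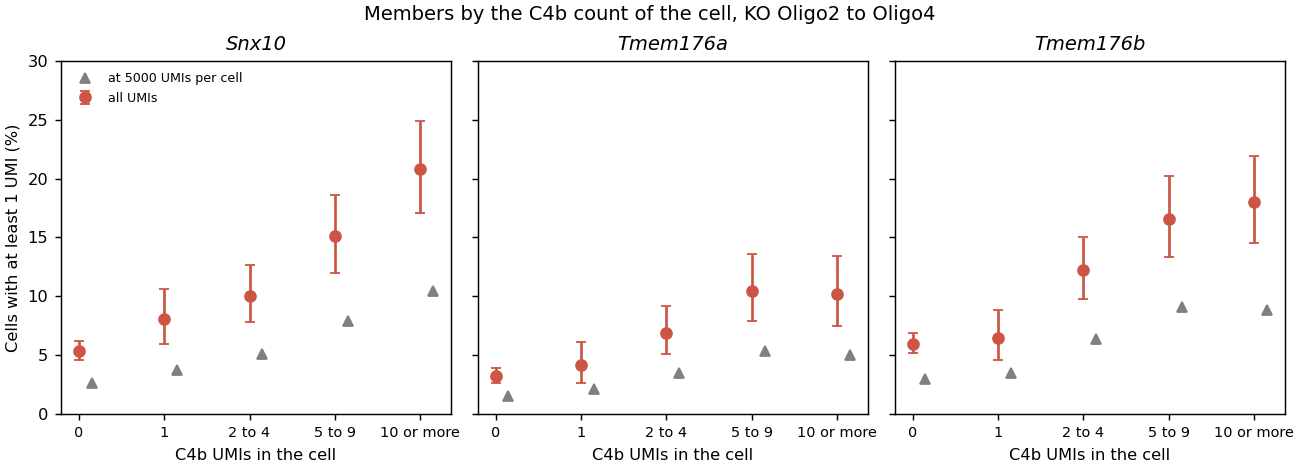
Percentage of *Fire*Δ/Δ cells of Oligo2 to Oligo4 with a UMI of each gene, by the number of *C4b* UMIs in the cell (red circles, all UMIs with 95% Clopper-Pearson intervals; grey triangles, cells thinned to 5000 UMIs). *Snx10* goes from 5.37% at 0 to 20.8% at 10 or more *C4b* UMIs, and the thinned shares keep the same direction from 2.64% to 10.4%.

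The tissue difference was not used to choose the genes and could be tested. In Oligo2 to Oligo4, limma on the 8 library means with genotype in the model gave a hippocampus minus cortex difference in mean log2 expression of 0.014 (SE 0.0087, adjusted p = 0.961) for *Snx10*, 0.0084 (SE 0.0058, adjusted p = 0.969) for *Tmem176a* and 0.021 (SE 0.0089, adjusted p = 0.938) for *Tmem176b*. None passed the threshold, nor did any other gene (0 of 11648, or 0.00%, with 597 at an unadjusted p below 0.05, and 0 with edgeR, 624 unadjusted). That fit did not use the pairing of the 2 libraries of a mouse. With the mouse as a block in place of genotype, limma called 95 genes (0.816%). The adjusted p-values of the members were then 0.181, 0.409 and 0.189 (unadjusted 0.0166, 0.119 and 0.0183). *Snx10* was higher in the hippocampus in 3 of 4 mice, all but *Fire*+/+ mouse 4, and both *Fire*Δ/Δ mice had all 3 genes higher there.

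**Figure D5:**
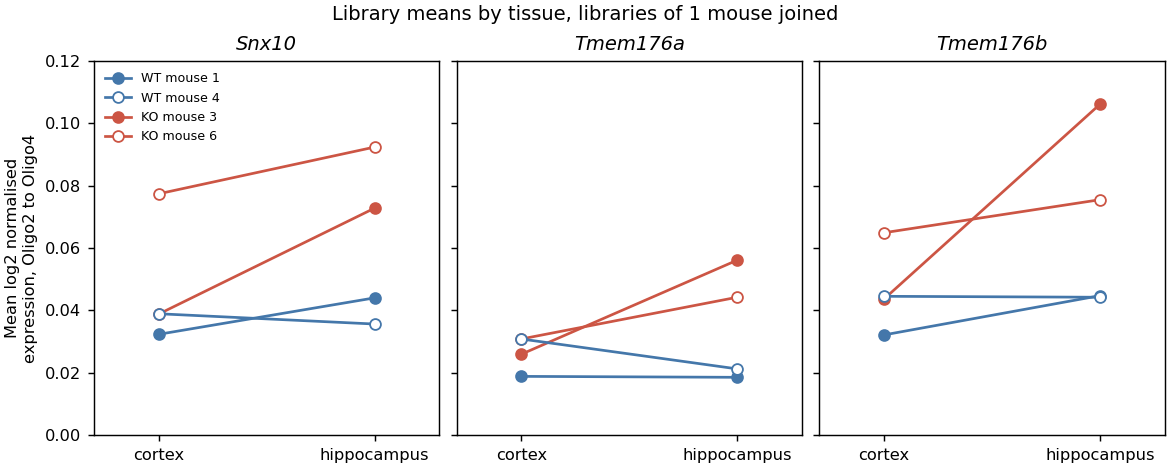
Mean log2 normalised expression in Oligo2 to Oligo4 by tissue, with the 2 libraries of a mouse joined (blue, *Fire*+/+; red, *Fire*Δ/Δ; filled, mice 1 and 3; open, mice 4 and 6). The red lines rise towards the hippocampus for each gene. Of the blue lines, that of mouse 1 rises for *Snx10* (0.032 to 0.044) and for *Tmem176b* (0.032 to 0.045). The red line of mouse 6 goes from 0.065 to 0.076 for *Tmem176b*. The blue line of mouse 4 falls for *Tmem176a* (0.031 to 0.021) and for *Snx10* (0.039 to 0.036), and the other blue lines are near level.

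The families and pathways around the 3 genes were counted in the same fits, in which limma called 0.0514% of all genes between genotypes, so that 0 calls say little about a short list. Of 29 other sorting nexins, 27 were tested and none was called between genotypes by limma in either direction, with a median log2 difference of 0.0040 against 0.00092 over all genes. *Snx11* and *Snx22* had all *Fire*Δ/Δ libraries above all *Fire*+/+ libraries on the mean log2 scale (2 of 27, against 2.95% of all genes), and 0 of the 27 reached 2-fold in Oligo1 in 4 libraries (1.00% of all genes). By share of cells *Snx11* overlapped, at 14.33 to 16.91% in *Fire*+/+ and 15.09 to 19.55% in *Fire*Δ/Δ. *Snx22* was detected in 4.10 to 5.54% of *Fire*+/+ and 8.43 to 8.74% of *Fire*Δ/Δ cells, with an adjusted p of 0.332 by limma. None of 6 retromer and retriever genes (cargo retrieval from endosomes), 19 V-ATPase genes (acidification of endosomes and lysosomes) or 5 osteopetrosis genes outside the V-ATPase was called. On the mean log2 scale *Vps26c* (1 of 6 retromer and retriever genes) and *Atp6v0e* (1 of 19 V-ATPase genes) were higher without overlap in *Fire*Δ/Δ. By share of cells both overlapped, *Vps26c* at 11.67 to 14.8% in *Fire*+/+ and 13.83 to 17.97% in *Fire*Δ/Δ, and *Atp6v0e* at 60.64 to 69.63% and 66.77 to 75%. The median log2 difference of the V-ATPase genes was 0.025.

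The relatives of the *Tmem176* pair were mostly too low to test. Of 15 MS4A family genes, 6 were in the matrix and 0 passed the filter, at up to 0.712% of cells. Of 10 inflammasome genes 4 were tested and of 7 genes of the MHC class II pathway 1, and none was called. Within 1.0 Mb, 7 neighbours of *Snx10* and 17 of the pair were tested, and 0 of either were called or without overlap between genotypes, against 0.0514% and 2.95% of all genes. Their log2 ratios of Oligo1 over other *Fire*Δ/Δ cells ranged from -0.15 to 0.48 near *Snx10* and from -0.30 to 0.47 near the pair, where the members had mean log2 ratios of 2.59, 2.24 and 2.33.

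The genes most like each member over 28 library-by-cluster means were given by Pearson's r of mean log2 expression, as a description, since these means share libraries and the contrast of Oligo1 with the rest. *Snx10* was most like *Pros1* (r = 0.97), *Serpina3n* (0.97), *Tagln2* (0.96), *Rhoj* (0.96) and *Cebpd* (0.95). *Tmem176a* and *Tmem176b* were each other's closest gene of 11634 (r = 0.95). Next came *Oaf* (0.92), *Emp3* (0.91), *Anxa4* (0.90) and *Col6a1* (0.90) for *Tmem176a*, and *Fosl2* (0.93), *Emp3* (0.93), *Cela1* (0.92) and *Col6a1* (0.92) for *Tmem176b*. *Snx10* ranked 58 for *Tmem176a*, and the pair ranked 100 and 101 for *Snx10* (r = 0.78).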

How the data were processed

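Libraries from 2 *Fire*+/+ and 2 *Fire*Δ/Δ mice, a hippocampus and a cortex library each, were made by 10x Genomics scRNA-seq. The authors aligned reads to mm10 with Cell Ranger 5.0.0 (submitters' processing notes), kept cells identified as mature oligodendrocytes, clustered them and normalised with scran. The deposited values are on a log2 scale: UMI counts were divided by size factors and 1 was added before the logarithm. A deposited table gives total UMI counts per cell and the size factor, a ratio to the average cell, computed by the authors. UMI counts were recovered from both files, and 100% of values above 0 came out whole within 0.001 UMIs. The study's methods describe a sort that gates out doublets, no doublet caller was run here, and they call a batch numbered 6 of poorer quality, taken here as chip 6 of the metadata although they name no chip. The matrix holds fewer cells than the study states.

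Genes detected in 1.0% of cells or more were tested with limma 3.58.1 in R 4.3.3, on the mean log2 value of each mouse (genotype) or library (tissue, with genotype), and p-values were adjusted by Benjamini-Hochberg over all genes tested. edgeR 4.0.16 on recovered counts was an alternative. The main limma fits, and the edgeR fits for genotype in all oligodendrocytes and for tissue, were checked on simulated data. Shares were also computed for cells thinned to 5000 UMIs. The libraries of a mouse are paired by its labelled number, and their deviations from genotype and tissue means correlated with r = 0.835 in *Fire*+/+ and 0.852 in *Fire*Δ/Δ over 11648 genes. Promoter windows were from RefSeq (GRCm38.p6) and gene positions from GENCODE.

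The members and gene lists were chosen with earlier results of these data known. Named genes were the members, *C4b*, *Serpina3n*, *Csf1r*, list genes or neighbours that were called, and the 5 genes most like each member. *Snx11*, *Snx22*, *Vps26c* and *Atp6v0e* were named after their values were seen. A further oligodendrocyte marker is not reported here.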

Additional observations from a re-analysis of the deposited data

Results flagged for a closer look

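In groups of 4 libraries, a library was picked out when its gap to the nearest other library was large against the whole range of the group (Dixon's test). Of 55 groups looked at, 9 had such a library, where chance alone picks out about 1 in 20 groups, and several of the 9 hold the same cells.

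For *Snx10*, the cortex library of *Fire*+/+ mouse 1 was low, at 4.32% of all cells and of the cells of Oligo2 to Oligo4, whereas the other *Fire*+/+ libraries lay within 4.97 to 4.99% and 4.90 to 4.99%. The gap was under a percentage point, and the *Fire*Δ/Δ libraries lay at 8.47% or above in all cells. No library was picked out for *Tmem176a* or *Tmem176b*.

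The hippocampus library of *Fire*+/+ mouse 4 was high for the reference genes. *C4b* was detected in 11.8% of its Oligo3 cells, against 4.71 to 5.70% in the other *Fire*+/+ libraries. *Serpina3n* was detected in 6.69% of all its cells (others 1.43 to 1.51%), 6.34% of Oligo2 to Oligo4 (1.43 to 1.51%), 13.6% of Oligo2 (2.49 to 3.50%) and 5.13% of Oligo3 (0.909 to 1.46%). In this library *Snx10* and *Tmem176a* lay within the range of the other *Fire*+/+ libraries, and *Tmem176b* was the highest of the 4, at 6.40% against 4.32 to 5.34%.

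The cortex library of *Fire*Δ/Δ mouse 3 was low for *Serpina3n*, at 12.4% of Oligo2 to Oligo4 (others 21.0 to 22.2%) and 6.95% of Oligo3 (12.3 to 12.9%). It also had the lowest shares of *Snx10*, *Tmem176a* and *Tmem176b* in all cells among the 4 *Fire*Δ/Δ libraries.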

How the results depend on the processing

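The *Fire*Δ/Δ minus *Fire*+/+ difference of the 3 members stayed above 0 in all 77 alternative values, but its size moved. With cortex libraries alone it was 0.052 for *Snx10*, 0.019 for *Tmem176a* and 0.046 for *Tmem176b* in all cells (from 0.099, 0.043 and 0.077), and 0.0036 for *Tmem176a* and 0.016 for *Tmem176b* in Oligo2 to Oligo4 (from 0.017 and 0.031). For *Tmem176a* it was 0.067 and 0.030 with hippocampus libraries alone, and for *Snx10* in Oligo2 to Oligo4 it was 0.018 without mouse 6 (from 0.033). The count of genes called between genotypes moved more. In all oligodendrocytes it went from 6 to 2 with cortex libraries alone, 3 with 10000 UMIs per cell, 22 on the log2 of the mean plus 0.1, 0 without a filter (901 at an unadjusted p below 0.05), 48 with edgeR and 26 without chip 6. In Oligo2 to Oligo4 it went from 3 to 5 with hippocampus and 0 with cortex libraries alone (231 unadjusted), 7 on the log2 of the mean, 0 without a filter (690 unadjusted), 16 with edgeR and 7 without chip 6. Leaving out mouse 1, 4, 3 or 6 gave 123, 147, 159 and 137 genes in all cells and 35, 31, 92 and 71 in Oligo2 to Oligo4, with the lone mouse of a genotype assumed to vary like the others. Without the hippocampus library of *Fire*+/+ mouse 4 the counts were 6 and 2. That library and chip 6 were left out after seeing the data. The causes of these shifts were not tested.

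The Oligo1 difference of *Snx10* went from 0.36 to 0.24 in the cortex, 0.44 with 10000 UMIs per cell and 1.76 on the log2 of the mean plus 0.1, that of *Tmem176a* from 0.14 to 0.18 and 1.05 with the last 2 settings, and that of *Tmem176b* from 0.24 to 0.30 and 1.35. With 1 mouse left out they were 0.33 to 0.39, 0.12 to 0.16 and 0.23 to 0.26. The *C4b* difference of *Snx10* went from 6.91 points to 3.70 at 5000 UMIs, 8.11 with at least 2 *C4b* UMIs, 8.11 with *Serpina3n* in place of *C4b* and 5.13 in Oligo3. For *Tmem176a* it went from 4.26 to 2.20, 5.30, 3.33 and 3.46, and for *Tmem176b* from 5.78 to 3.46, 8.06 and 2.94, with *Serpina3n* giving 6.48.

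For the tissue difference, the replicate block (the pairing of the libraries of a mouse) raised the count of called genes from 0 to 95 and changed no call of a member, whose adjusted p ranged from 0.181 to 1.00 over 41 values for the 3 genes. The difference of *Tmem176a* turned to -0.0049 in *Fire*+/+ libraries alone. The depth limits all shares: 2034 UMIs of *Snx10*, 923 of *Tmem176a* and 1792 of *Tmem176b* were counted in all. Values in *Fire*Δ/Δ cortex Oligo1 rest on 98 and 147 cells and those in *Fire*Δ/Δ cortex Oligo4 on 72 and 47.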
